A study of Homo sapiens with 2 samples.

Results

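The downstream promoter peaks were the m6A peaks that carried a promoter label in the deposited annotation and lay wholly beyond the assigned transcript start, on the transcribed side. They were the rows with a promoter label and a distance to the start above 0, and they numbered 3583 of the 39801 peaks in the list, with 3066 assigned genes. The distance runs from the start to the nearest edge of the peak and was found again from the transcript coordinates for 100% of rows. The m6A profile came from wild-type HCCLM3 cells, a human hepatocellular carcinoma line with high metastatic capacity. RNA was captured with an m6A antibody in 1 RIP library and compared with 1 input library, and the labels name the Magna RIP kit for RNA and the stranded SMARTer pico-input kit for libraries. Neither library had a replicate, so every value describes these 2 libraries and no test between conditions or peak classes was possible. The series was made to study CRTC2, a coactivator of CREB, and YTHDF2, a reader of m6A, and the comparison of RIP with input addresses where transcripts carried the modification.

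N6-methyladenosine is placed on nascent RNA by a nuclear complex built around METTL3 and METTL14, removed by FTO and ALKBH5, and bound by YTH-domain and IGF2BP proteins. In mRNA it is known to be dense around stop codons, in 3' UTRs and in long internal exons, and methylated adenosines usually sit in a short context such as GGACT. A promoter label on an RNA peak states a distance and not a promoter function: it covers everything within 3 kb of a start and hides whether the RNA there is a 5' UTR, coding exon, intron or, in a compact gene, a 3' UTR. No transcript models were used here, so these categories were not separated. Positions are on hg38, and RefSeq sequences are from GRCh38.p14.

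Of 2229 peaks whose assigned start was also a start in the RefSeq promoter table, 175 reached back into the first 50 transcribed bases, and 5 of those held the letters GGACT there. Only these stretches could be read, because no genome sequence was used. They are shown because they are parts of the peaks within the first 50 bases, each 5' to 3' on the strand of the gene, with GGACT in capitals. For CTU2, whose stretch was longer, only the 30 bases farthest from the start are printed. The first 4 belong to the peaks of highest −log10 p-value of the 175 and the other 4 are the remaining peaks with GGACT.
KCTD1, chr18:26548504-26548517, minus strand: gcggGGACTgtaac
APTR, chr7:77697296-77697322, minus strand: cacaaatcctgcagcgcactaactggg
LINC-PINT, chr7:131109867-131109891, minus strand: cctttcccagcccaggggcacgcga
DM1-AS, chr19:45767827-45767845, plus strand: ggaagaggagacgcgtgcg
CTU2, chr16:88706523-88706552, plus strand: gcgtgcccatgtgtcaggtgggcgaGGACT
CAPS, chr19:5914285-5914303, plus strand: GGACTctgggacagacgca
EID2B, chr19:39532803-39532823, minus strand: ctccgtagaaacgctgGGACT
CPEB4, chr5:173888372-173888398, plus strand: GGACTcagccgcggctgcgggacccgg

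GGACT was searched on the transcribed strand only, and the shorter GGAC, which it contains, was found in 16 of the 175 stretches. The stretches had a median of 28 bases. In the whole 50 bases after the start, GGACT was held by 4.87% and GGAC by 18.8% of the windows of all 27305 genes in the table. A match is a description of letters and not a mapped site. The KCTD1 peak, in the gene of a BTB-domain repressor, was long and strong, with a fold over input of 7.50 (95% Poisson interval 6.21 to 8.99) on 114 RIP fragments. CPEB4, which encodes a cytoplasmic polyadenylation element-binding protein, followed with a fold of 5.93 (4.77 to 7.29) on 87 fragments. EID2B, the gene of an EP300-interacting inhibitor of differentiation, had a fold of 7.56 (4.92 to 11.2) on 22. CTU2, for an enzyme of tRNA thiolation (4.25 on 9 fragments), and CAPS, for the calcium-binding calcyphosine (2.47 on 10), rested on few fragments. The long non-coding RNAs LINC-PINT and APTR held none of these letters in the stretch read, and their peaks had folds of 6.45 (5.26 to 7.83) and 4.53 (3.87 to 5.28).

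The fold is the authors' value for each peak, at its summit the RIP signal divided by the input with a pseudocount, as is the q-value, the peak caller's p-value adjusted for the number of places tested. The number of RIP fragments under a summit and the local input level, in fragments on the scale of the input library, were worked out from the fold and p-value of each peak. The exact Poisson interval of each fold treats the input as fixed and varies the fragment number alone, shares have Wilson intervals, and neither covers more than counting error. No molecular identifiers are named in the labels, so fragments may be copies of 1 molecule. The RIP library was 1.56 times the size of the input. Peaks have no strand in the table, and antisense or overlapping genes could therefore not be told apart.

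The downstream promoter peaks had a median fold of 3.53 (quartiles 2.69 to 4.84) and ranged from 1.20 to 16.4. They were 399 bases wide in the median (319 to 611). Under their summits lay a median of 19 RIP fragments (8 to 47), against 9 under those of all other peaks, and the median input level was 2.0, against 0.651 for the others. These RNAs were thus better represented in the input than those under most peaks of the list. The level was not lower under every other label. Its median was 0.296 for the 15069 intron and the 6978 intergenic peaks, but 2.07 for exon and 3.55 for 3' UTR peaks. Why the levels differ was not tested, and fewer cells and less RNA per cell cannot be told apart. At a q-value under 0.05 stood 2274 of them, or 63.5% (61.9 to 65.0), against 48.8% of the whole list. At a q-value under 1e-5 stood 1307, or 36.5% (34.9 to 38.1), against 25.8% of the whole list. At the weak end, 363 peaks (10.1%) rested on at most 3 fragments and 543 (15.2%) had a q-value of 1.

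Of the 3 kinds of promoter-labelled peak, the downstream ones had the most fragments. Peaks that covered the start numbered 511 and had a median of 15 RIP fragments and a fold of 3.68, and 60.7% (56.4 to 64.8) of them passed a q-value of 0.05. Upstream promoter peaks numbered 1462 and had 13 fragments and, with the pseudocount, a fold of 3.34, with 54.5% (52.0 to 57.1) past the threshold. The interval of the downstream peaks lay wholly above that of the upstream peaks and overlapped that of the peaks over the start. Away from promoter labels, 3' UTR peaks were stronger than downstream promoter peaks in each of these measures, with 32 fragments, a fold of 4.12 and 78.6% past the threshold, and exon peaks stood at 23, 3.80 and 69.9%. Intron peaks had 6 fragments, a fold of 2.90 and 33.1%. The pseudocount lowers a fold most where input is low, as it was in introns at 0.296. Without it, the median fold was 5.82 for downstream promoter peaks, against 6.64 for peaks over the start, 6.50 for upstream and 7.82 for intron peaks, so the order against upstream and intron peaks turned, while 3' UTR peaks stood at 5.96 and exon peaks at 6.26. Intron and intergenic peaks shared the same 7.82, a tied value, and 30.7% and 34.3% of them rested on at most 3 fragments. Few whole fragments over low input give few distinct folds, so the turned order is not a firm order of enrichment.

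**Figure D1:**
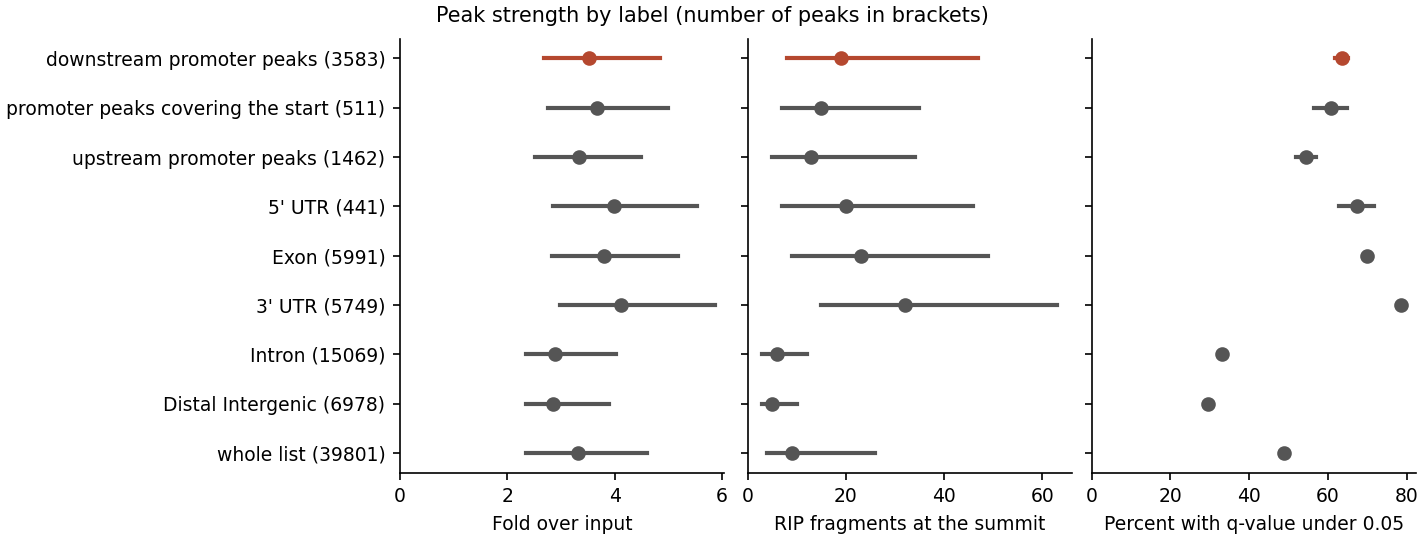
Fold over input, RIP fragments at the summit and the percent of peaks with a q-value under 0.05, by deposited label, with downstream promoter peaks at the top and the number of peaks in brackets. Points are medians with quartiles in the left and middle panels, and shares with 95% Wilson intervals in the right panel; downstream promoter peaks stand at 3.53, 19 and 63.5%.

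The order of the folds turned with the pseudocount and with the strength of the peaks. Over all peaks the median fold was 3.53 for downstream promoter peaks and 3.32 for all other peaks, but without the pseudocount it was 5.82 and 7.82. The latter was again the tied value, and 22.5% of all other peaks rested on at most 3 fragments. With a q-value below 0.05 it was 4.40 for the downstream ones and 4.67 for the others, and under 1e-5 it was 5.20 and 5.92. With more than 3 RIP fragments it was 3.74 in both. At each of these settings the downstream peaks had more fragments, for example 54 against 43 at a q-value under 1e-5. Where the calls were firm, the downstream peaks therefore combined more RIP fragments with a lower fold, over a higher input level (6.0 against 4.0). A q-value threshold asks for a higher fold where input is low, so the filter itself shapes this order.

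Most of the peaks lay close to the start. The nearest edge was within 1 kb for 2001 peaks (55.8%), from 1 to 2 kb for 875 (24.4%) and from 2 to 3 kb for 707 (19.7%). Fold and depth hardly moved with distance. The median fold was 3.47 within 1 kb, 3.59 from 1 to 2 kb and 3.63 from 2 to 3 kb, on 20, 19 and 18 RIP fragments, and the share past a q-value of 0.05 was 64.0%, 62.9% and 62.8%. Depth was lowest in the first 250 bases. The 318 peaks with a summit there had a median of 12 RIP fragments over an input level of 1.0, and 56.6% (51.1 to 61.9) of them passed, whereas the 718 peaks with a summit from 501 to 1000 bases had 22 fragments over 2.63 and 67.4% (63.9 to 70.7) passed. The passing share of the first bin did not stand apart from all others: it was 60.0% (56.2 to 63.7) from 251 to 500 bases and 60.5% (55.7 to 65.1) from 2001 to 2500. A peak whose edge touches the start counts as covering it, which takes wide peaks out of the first bases by construction.

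**Figure D2:**
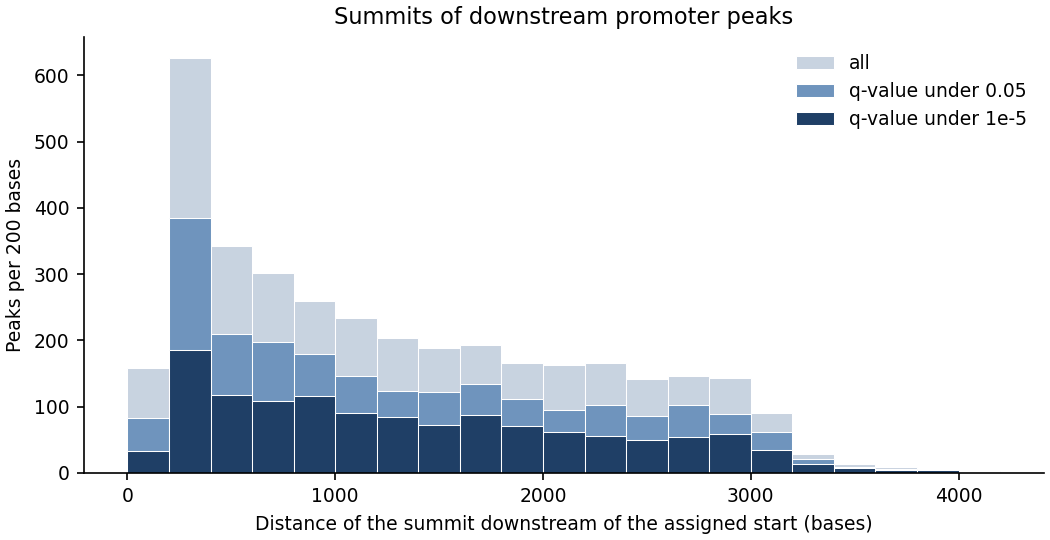
Number of downstream promoter peaks per 200 bases against the distance of the summit from the assigned start in bases, for all peaks and for those with a q-value under 0.05 and under 1e-5, drawn over each other. Summits crowd between 200 and 400 bases, thin out from there and run to 4114 bases, past the 3 kb reach of the label, because the distance is taken at the nearest edge.

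At the edges of the rule, the farthest peak inside belonged to SOX9, a transcription factor of progenitor cells, 2997 bases from the start with a fold of 7.69 on 53 RIP fragments. The nearest beyond it belonged to APOLD1, 3001 bases from its start, and bore a 3' UTR label with a fold of 6.92 on 20 fragments. The closest peaks, 1 base from the start, were those of MFSD2A (fold 2.35 on 3 fragments), SMURF2 (3.89 on 6) and CHLSN (3.27 on 29).

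The label did not guarantee that the peak belonged to the named gene. The summit lay inside the assigned transcript for 3281 peaks (91.6%) and past its end for 302 (8.43%). The median fold was 3.38 on 24 RIP fragments for the peaks past the end and 3.54 on 19 for those inside. By biotype, 2876 peaks (80.3%) were assigned to protein-coding genes, 356 (9.94%) to long non-coding RNAs, 152 (4.24%) to microRNAs, 131 to transcribed pseudogenes and 46 to snoRNAs. Of the 152 microRNA peaks 1 had its summit inside the microRNA gene, and of the 46 snoRNA peaks none did. Another protein-coding gene held the summit for 125 of 151 microRNA peaks past the end (82.8%) and for 39 of the 46 snoRNA peaks (84.8%). Over all 302 peaks past the end the same held for 228 (75.5%), and for 36 of 52 (69.2%) assigned to protein-coding genes. A summit in another gene was thus common past any transcript end and not particular to small RNAs.

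Several of the small-RNA labels sat on well-known genes, of which these examples were chosen after their values were seen. The peak assigned to MIR4667 lay in TESK1, a testis-associated protein kinase gene, with a fold of 6.51 (5.60 to 7.52) on 181 RIP fragments. SNORA117 named a peak in DIDO1, for a death-inducer and chromatin protein (5.995, 5.15 to 6.94, 176 fragments), and SNORD172 one in KAT6B, for a histone acetyltransferase (7.26, 5.86 to 8.91, 89 fragments). MIR4690 named a peak in PCNX3 (7.21 on 122 fragments) and MIR26A2 one in its host CTDSP2, a phosphatase gene (4.27 on 145). MIR616 named a peak in DDIT3, the stress factor CHOP (3.05 on 185), and SNORD68 one in the ribosomal protein gene RPL13 (4.42 on 97). In each of these peaks the summit lay in the coding gene and beyond the end of the small RNA that named it. Higher folds on fewer fragments lay under SNORA47 in ZBED3 (11.4 on 34) and under MIR12135 in NEO1, a netrin receptor gene (10.8 on 49). The strongest of the peaks past a transcript end by −log10 p-value, next to MIR4652 at chr7:93717464-93717951, had a fold of 12.9 (10.6 to 15.6) on 108 fragments, and no protein-coding gene of the RefSeq table lay under its summit.

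A mature microRNA lay whole within its downstream peak at 2 loci, printed here from RefSeq with the seed, bases 2 to 8, in capitals.
hsa-miR-1182, chr1:231019841-231019863, minus strand: gAGGGUCUugggagggaugugac
hsa-miR-320d, chr13:40727828-40727846, minus strand: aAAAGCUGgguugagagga

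The hsa-miR-1182 peak lay in FAM89A with a fold of 3.90 (2.84 to 5.24) on 41 RIP fragments, and the hsa-miR-320d peak had 3.89 (1.94 to 7.53) on 6. The seeds differ. Fragments of a longer host or primary transcript and of the mature RNA could not be separated.

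A start on either side of a peak adds to this uncertainty. Among 3399 downstream peaks on chromosomes of the start table, 728 (21.4%) also had their summit within 3 kb upstream of the start of another gene. Of the 3583 peaks, 52 lay on contigs outside the main chromosomes, where genes can be listed a further time. Chromosome 19, dense in genes, held 8.21% of the downstream peaks, against 4.44% of the whole list and 7.24% of protein-coding genes, and chromosome 2 held 5.50% of them, against 7.77% and 6.25%.

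What the downstream label stood for depended on the length of the transcript. Among protein-coding transcripts that held the summit, those spanning up to 3 kb of genome carried 336 peaks in 291 genes, and the summit stood at a median of 66.7% of the span from start to end (quartiles 40.7% to 84.4%). The median distance to the transcript end was 678 bases. Within 1 kb of the end lay 223 of these summits, or 66.4% (61.2 to 71.2), where the last 1 kb made up 51.9% of the span in the mean over these peaks. That mean counts the whole span as open to summits. Peaks touching the start are not members, so the rule itself moves summits toward the end, and the shares cannot be compared directly. In longer transcripts the reach of the label sets how far along the span a peak can lie, so the positions are a description of the rule: the median summit stood at 45.8% of the span for the 328 peaks in transcripts of 3 to 5 kb and at 1.63% for the 1806 in transcripts over 10 kb. The promoter label thus held peaks near the transcript end of compact genes together with peaks near the start of long ones.

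Peaks in short transcripts were also deeper than those in long ones. Those in transcripts up to 3 kb had a median of 37.5 RIP fragments, a fold of 3.87 and 73.8% (68.9 to 78.2) past a q-value of 0.05. In transcripts of 3 to 5 kb the values were 31 fragments, 3.98 and 76.2% (71.3 to 80.5), and over 10 kb they were 18 fragments, 3.45 and 61.2% (59.0 to 63.5). The order of the folds between the shortest and the longest class turned at a q-value under 1e-5 (4.95 against 5.25) and without the pseudocount (5.35 against 5.86). Within the short transcripts, the 227 peaks nearer the end had a fold of 4.05 on 49 fragments, and 78.4% (72.6 to 83.3) passed. The 109 nearer the start, where the rule leaves out peaks touching the start, had a fold of 3.45 on 24 fragments, and 64.2% (54.9 to 72.6) passed. The input level was higher near the end as well (5.33 against 3.0). Keeping only firm calls moved the short-transcript summits no nearer the start: past a q-value of 0.05, 70.2% lay in the last 1 kb, and past 1e-5, 72.1%.

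**Figure D3:**
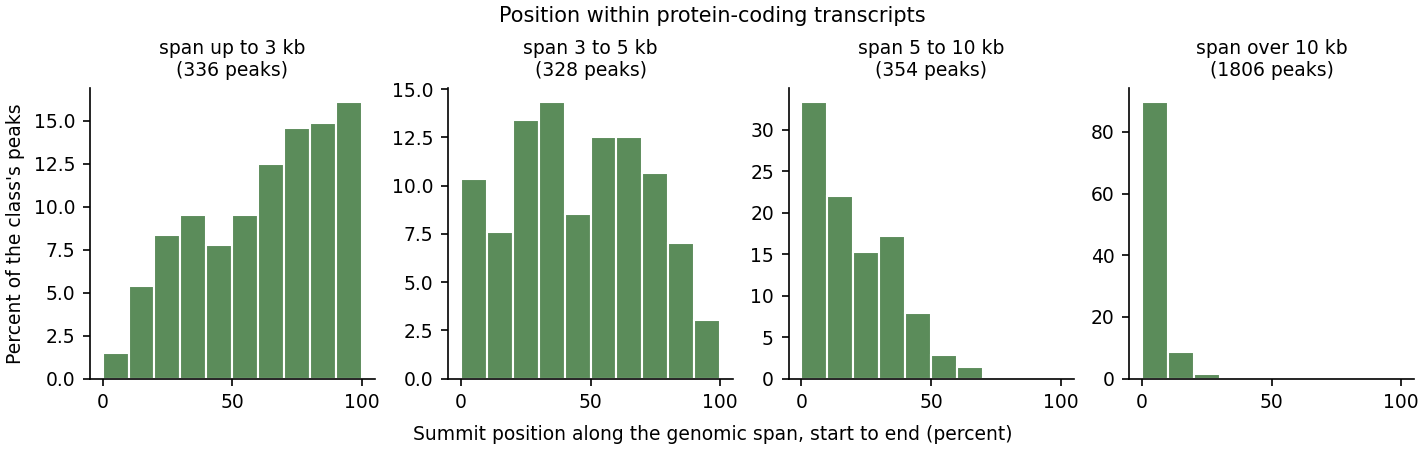
Position of the summit along the genomic span of the protein-coding transcript, from 0% at the start to 100% at the end, as the percent of peaks in each class of span; the vertical scales differ between panels. In transcripts up to 3 kb the share climbs to 16.1% in the last bin, while in transcripts over 10 kb nearly all summits stand in the first bin; peaks covering the start are not members, which takes from the first bin.

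Of the 12 peaks of highest −log10 p-value, 6 lay inside protein-coding transcripts of up to 3 kb. TSR3, whose enzyme modifies 18S rRNA, had its summit 75 bases from the transcript end (chr16:1349121-1349989), with a fold of 10.96 (9.30 to 12.8) on 152 RIP fragments. OVCA2, a serine hydrolase gene, had its summit 125 bases from the end, with 8.04 (6.86 to 9.36) on 163 fragments. In CEBPD, a bZIP factor of inflammation and fat cell differentiation, the summit lay 292 bases from the end of a transcript of 1252 bases, and its fold of 16.4 (13.3 to 20.0) on 92 fragments over an input level of 2.66 was the highest of all downstream promoter peaks. Summits of SOX2, TCEAL8 and IER5L stood 949, 717 and 1183 bases from the end. SOX2, a pluripotency factor encoded by 1 exon, had a fold of 9.31 (7.93 to 10.9) on 158 fragments at chr3:181712023-181713981.

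Other firm calls lay in longer transcripts, where the 3 kb reach of the label itself keeps most summits away from the end. PURA, for a single-stranded nucleic acid-binding protein, had the highest −log10 p-value, 70.6, with a fold of 12.7 (10.7 to 14.9) on 141 RIP fragments 1125 bases from its start (chr5:140114838-140115692). The casein kinase gene CSNK1G3 had a fold of 16.4 (12.9 to 20.4) on 75 fragments, 382 bases into a transcript of 71628 bases. CYP4F3, for a cytochrome P450 that hydroxylates leukotriene B4, had 14.8 (12.3 to 17.7) on 117 fragments at chr19:15642694-15643445. TWNK, the mitochondrial DNA helicase gene, had 8.96 (7.60 to 10.5) on 152 fragments 379 bases from the start, and TRIM56, a ubiquitin ligase gene of innate immunity, 7.22 (6.20 to 8.37) on 173 fragments. HEXIM1, an inhibitor of the elongation kinase P-TEFb, reached 9.27 (7.88 to 10.8) on 154.

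The remaining high folds rested on fewer fragments. ANKRD49 (15.7 on 52 RIP fragments), CCDC71 (15.5 on 44), ZNF616 (15.5 on 44), TMEM177, for a factor of cytochrome oxidase assembly (14.9 on 56), and GGT1, the gamma-glutamyltransferase gene (14.8 on 42), had input levels from 0.888 to 1.48. FOXC1, a forkhead factor of mesenchyme, had 2 peaks, of fold 14.7 (11.4 to 18.5, 67 fragments) and 11.03 (7.86 to 15.1, 36 fragments). AOPEP, an aminopeptidase gene, had 14.3 on 43 fragments. GGNBP2 had 13.6 on 26 fragments, on an alternative contig of chromosome 17. The divergent transcript MTA1-DT had 13.97 on 42 fragments, with the summit past its end. By distance class, the next included BAIAP2-DT (13.5), the RhoGEF gene ARHGEF1 (13.4), LINC01665 (13.3), the phosphatase gene PTPN6 (12.4) and the pseudogene DDX11L5 (12.3), the last also past the transcript end. DDX11L5 is a member of a family of subtelomeric copies, so reads may be shared between them.

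**Figure D4:**
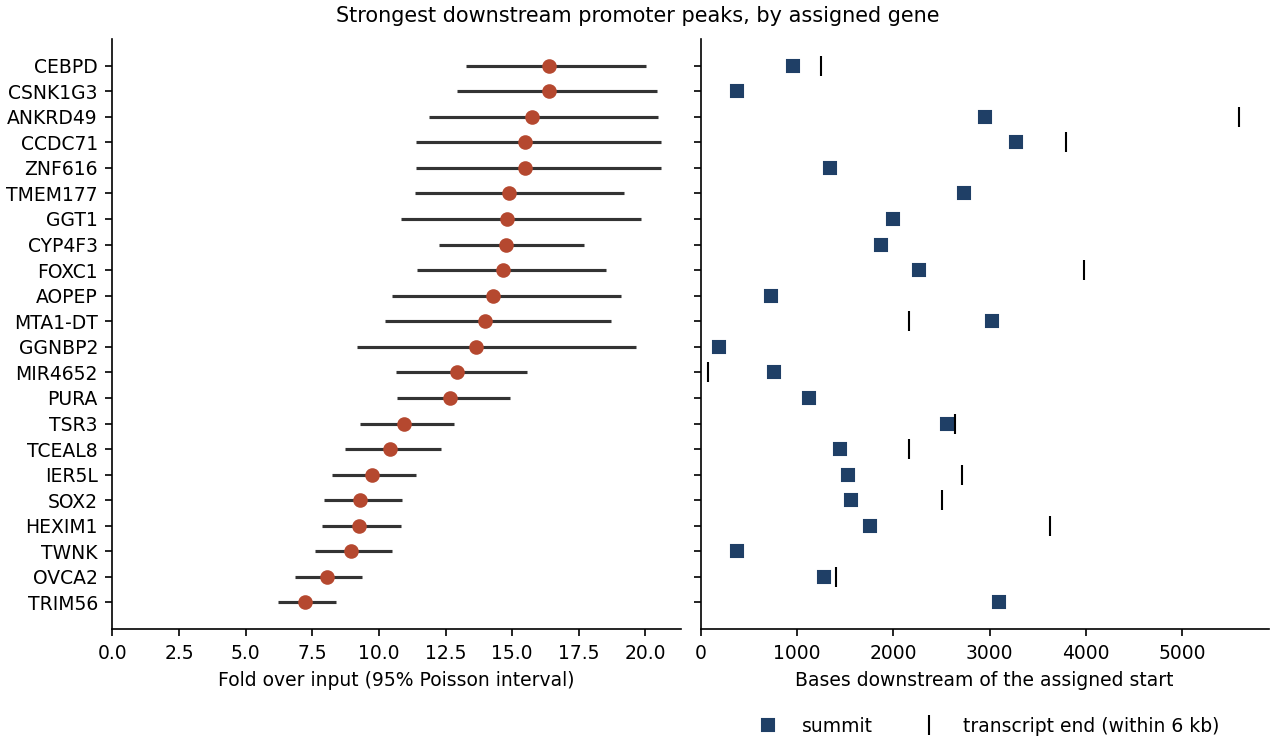
The downstream promoter peaks of highest fold or highest −log10 p-value, by assigned gene. The left panel gives fold over input with its 95% Poisson interval, and the right panel the distance of the summit from the assigned start in bases, with a tick at the transcript end where it lies within 6 kb; in TSR3, OVCA2 and CEBPD the summit stands close to that end, and in MIR4652 and MTA1-DT beyond it.

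Most genes had a single downstream peak. Of the 3066 genes, 2609 had 1, 404 had 2 and 53 had 3 or more. IRS1, the insulin receptor substrate encoded by a long first exon, had 4, with folds of 6.26 (4.89 to 7.90), 3.24 (2.73 to 3.82), 2.25 (1.75 to 2.85) and 1.81 (1.301 to 2.46) on 68, 140, 65 and 38 RIP fragments. They lay 608 to 3310 bases from the start, and the one of lowest fold did not pass a q-value of 0.05. GCNT2, a glycosyltransferase gene, and RGS3, a regulator of G-protein signalling, also had 4 each, set against several alternative starts, with highest folds of 7.18 and 6.13. IGFL4 had 4, of which 1 had its summit past the transcript end. The pseudogene BMS1P22 had 6 on chromosomes 14 and 22, which are uncertain because reads may be shared between copies.

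Peaks elsewhere in the same genes were counted too. Of the 3066 genes, 1829 (59.7%) were assigned another peak outside intergenic sequence, with an intron peak in 994 (32.4%), an exon peak in 716 (23.4%) and a 3' UTR peak in 701 (22.9%). Among 9014 genes that were listed through other peaks alone the shares were 54.5%, 34.1% and 40.8%, but those genes needed such a peak to be listed, so the shares cannot be compared. In 619 of the 1829 (33.8%) the downstream promoter peak had the highest fold of the gene's peaks.

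Of 20052 protein-coding genes, 2458 (12.3%) were assigned a downstream promoter peak and 1654 (8.25%) one with a q-value under 0.05. The share was highest in genes spanning 3 to 5 kb, 18.8% (16.7 to 21.0), against 13.7% (12.2 to 15.3) up to 3 kb and 11.7% (11.2 to 12.3) over 10 kb. The shares of the gene families below are descriptions beside that background. The lists were chosen with results of these data known, and they were not matched on expression or length.

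Growth-responsive genes, several of them for transcription factors, were often among them. Of 31 AP-1 and immediate early genes, which are induced within minutes of a growth signal, 17 (54.8%, 37.8 to 70.8) were assigned a downstream peak, and 16 of their 22 peaks passed a q-value of 0.05. Their median fold, 2.81, was below that of all downstream promoter peaks. IER5L had the highest at 9.72 (8.24 to 11.4) on 150 RIP fragments, followed by the antiproliferative gene BTG2 (7.88 on 18), the zinc finger factor gene EGR1 (6.69, 5.62 to 7.91, on 134) and IER5 (6.42 on 115). JUN and JUND, for AP-1 subunits, had many fragments at low fold over a high input level. JUN had 2.69 (2.36 to 3.05) on 237 fragments over an input level of 56.0, and JUND 2.28 (1.98 to 2.62) on 201 over 56.0. A further subunit gene, JUNB, had 4.68 (3.92 to 5.54) on 131. Of 14 CEBP and stress bZIP genes 7 were assigned one, with CEBPD first, the circadian repressor NFIL3 at 8.68 (5.92 to 12.3) and the stress factor ATF4 at 2.92 (2.54 to 3.34) on 205 fragments.

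Developmental transcription factor genes came next. Of 19 SOX genes 6 were assigned a downstream peak, and their 10 peaks all passed a q-value of 0.05, although the SOX15 peak had its summit past the transcript end, in MPDU1. Behind SOX2 and SOX9, SOX12 had folds of 7.67 (6.37 to 9.17) and 6.56 (5.14 to 8.25) and SOX4 3 peaks of 4.33, 4.05 and 3.57. Of 39 HOX genes, which pattern the body axis, 11 (28.2%) were assigned one, and 9 of their 15 peaks passed a q-value of 0.05. HOXC8 had 11.5 (8.85 to 14.8) on 59 RIP fragments, HOXC9 11.4 (9.35 to 13.8) on 105, HOXC6 9.04 (5.51 to 14.2) on 16 and HOXB7 7.65 (5.22 to 10.9) on 28. HOX genes overlap within their clusters, and the strand was not given. Of 45 FOX genes 12 (26.7%) were assigned one, and 14 of their 16 peaks passed. The genes included the liver pioneer factor FOXA2 with 3.68 (3.17 to 4.25) on 182 fragments. Among 32 GATA, NKX, IRX and sine oculis homeobox genes 4 (12.5%) were, close to the background, with NKX2-2 at 6.89, IRX5 at 6.62 and GATA6 at 5.37.

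Zinc finger genes were the largest family by number. Of 509 ZNF genes, 97 (19.1%, 15.9 to 22.7) were assigned a downstream peak, and 75 of their 121 peaks passed a q-value of 0.05. After ZNF616 came ZNF761 with 11.6 (8.80 to 15.0) on 54 RIP fragments, ZNF668 with 9.96 (7.35 to 13.2) on 45, ZNF600 with 9.86 and ZNF845 with 9.68 on 18. Of 41 ZBTB genes, which pair a BTB domain with zinc fingers, 15 (36.6%, 23.6 to 51.9) were assigned one, and 10 of their 20 peaks passed. ZBTB18, a transcriptional repressor with a role in neuronal development, had 10.8 (8.09 to 14.2) on 49 fragments and ZBTB10 had 7.61 (5.89 to 9.69) on 63. Of 27 KLF and SP genes 10 (37.0%) were, and 11 of their 15 peaks passed. Their folds were lower, at most 4.73 (2.48 to 8.57) on 8 fragments in SP9 and 4.51 (3.72 to 5.42) on 111 in KLF2. Among 58 KLHL and KCTD genes, adaptors of cullin 3 ubiquitin ligases and related BTB proteins, 13 (22.4%) were, led by KLHL23 (9.68 on 18) and KLHL9 (9.44 on 48). Of the 17 peaks of the KLHL and KCTD genes, 8 passed.

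Receptors and signalling feedback genes followed. Of 10 Frizzled genes, the Wnt receptors, 4 were assigned a downstream peak: FZD5 with 7.46 (6.11 to 9.02) on 103 RIP fragments, FZD7 with 6.88 (5.59 to 8.39) on 95, FZD4 with 6.83 (4.66 to 9.71) on 28 and FZD1 with 3.54 on 15. These summits lay between 1994 and 2932 bases from the start. FZD5 and FZD1 each had a further peak, of fold 2.89 on 84 fragments at 1426 bases and of 2.47 on 8 at 478 bases. Of 8 SOCS genes, which restrain cytokine signalling, 2 were, SOCS2 with 2 peaks of 7.88 and 7.56 and SOCS3 with 4.36 (3.47 to 5.41). Of 3 insulin receptor substrate genes 2 were, IRS1 and, on 3 fragments, IRS2. Of 14 HES, HEY, ID and BHLHE genes 4 were, with the Notch target HES1 at 6.77 (5.55 to 8.18) on 104 fragments. Among 23 DUSP phosphatase genes 6 (26.1%) were, with DUSP23 at 4.26 and the ERK phosphatase DUSP6 at 3.28 (2.79 to 3.84) on 152.

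At the other end stood genes of very abundant short mRNAs. Of 81 cytosolic ribosomal protein genes 3 (3.70%, 1.27 to 10.3) were assigned a downstream peak, among them RPL36 with 2.80 (2.34 to 3.32) on 128 RIP fragments and a copy of RPL21 placed on chromosome 10 with 3.73 on 18. Of 69 replication-dependent histone genes 3 (4.35%, 1.49 to 12.02) were. The only one past a q-value of 0.05 was H1-1, with 2.36 (1.95 to 2.85) on 109 fragments. Both families have near-identical copies, and how reads shared between copies were counted is not given in the sources used here. Any peak outside intergenic sequence was assigned to 23 of the 81 ribosomal protein genes and 5 of the 69 histone genes. Among the 31 AP-1 and immediate early genes the count was 22. The histone genes span 494 bases in the median, which leaves little room for a peak wholly beyond the start. Of 29 long non-coding RNAs 6 (20.7%) were assigned a downstream peak. LINC-PINT stood at the top, and the others included TUG1 at 4.27 (3.32 to 5.42), NORAD at 2.96 (2.54 to 3.43) and NEAT1, the paraspeckle scaffold, at 1.89 (1.64 to 2.17) on 205 fragments.

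**Figure D5:**
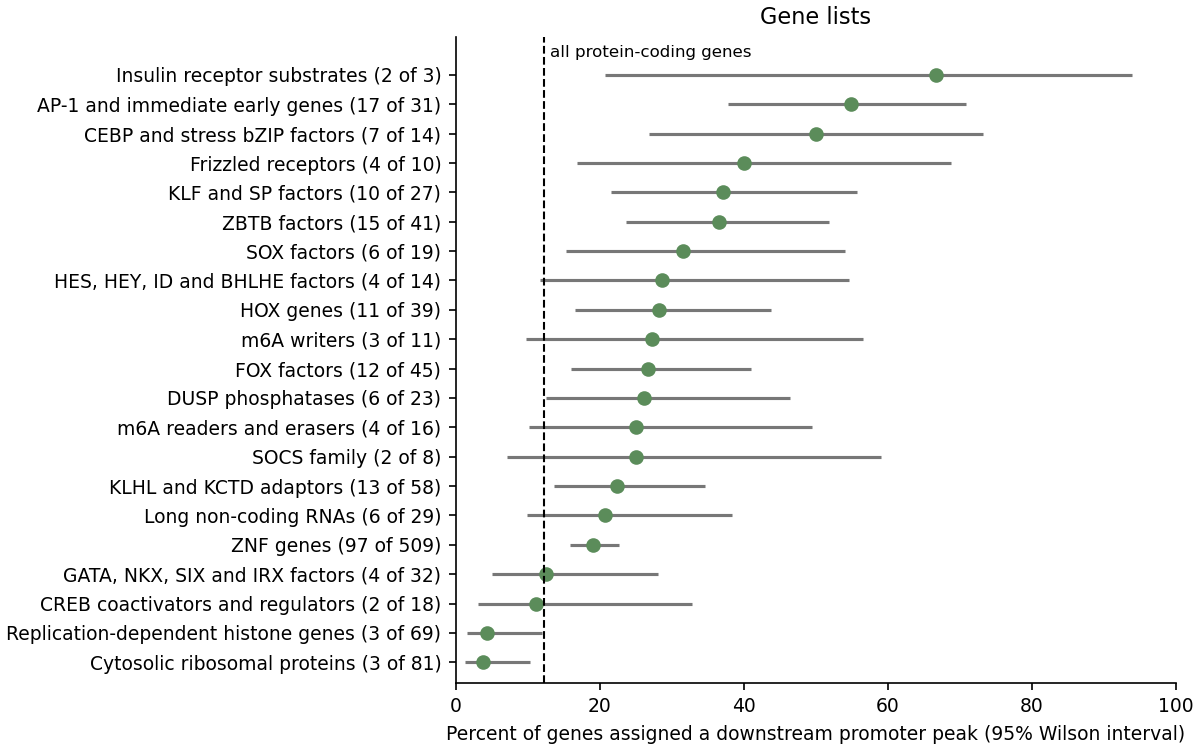
Percent of the genes in each list shown that were assigned a downstream promoter peak, with 95% Wilson intervals; the numbers in brackets are genes with such a peak of genes in the list, and the dashed line marks all protein-coding genes at 12.3%. AP-1 and immediate early genes stand at 54.8% and cytosolic ribosomal protein genes at 3.70%.

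Several genes of the m6A machinery had downstream peaks of their own. Of 11 writer genes 3 (27.3%, 9.75 to 56.6) were assigned one. RBM15, which recruits the complex to RNA, had 3.98 (3.35 to 4.71) on 135 RIP fragments, its paralog RBM15B 2.99 (2.55 to 3.49) on 157, and the catalytic subunit gene METTL3 3.85 (2.02 to 6.98) on 8. Of 16 reader and eraser genes 4 (25%, 10.2 to 49.5) were: YTHDF1 with 4.96 (3.02 to 7.77) on 16, IGF2BP3 with 3.23 (2.60 to 3.96) on 89, YTHDC2 with 2.75 on 4 and the demethylase gene ALKBH5 with 2.18 (1.83 to 2.58) on 131. YTHDC2 did not pass a q-value of 0.05. Neither CRTC2 nor YTHDF2 was assigned a downstream promoter peak. Of 18 CREB coactivators and regulators 2 (11.1%) were, the phosphodiesterase gene PDE4D with 5.70 (4.03 to 7.87) on 34 and SIK3, a kinase that restrains CRTC proteins, with 1.77 (1.27 to 2.41) on 37, which did not pass.

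Markers of the labelled liver origin were looked up in the peak list. Of 15 hepatocyte markers, 8 held a summit of some peak in the gene, among them HNF4A, APOB and the fibrinogen genes, and CEBPA and FOXA2 were assigned a downstream promoter peak. Neither ALB nor APOA1 held one, and a peak list shows enrichment over input rather than expression. The share of all genes that held a summit was not computed, so the count of 8 is no measure of liver origin. A downstream promoter peak was assigned to 2 of the 15 markers, beside 12.3% of all protein-coding genes. Of 6 immune markers 1 held a summit and none was assigned a downstream promoter peak, and of 7 endothelial and stromal markers 2 held a summit and LUM was assigned one.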

How the data were processed

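Per the submitters' processing notes, HISAT2 and MACS2 were used with hg38 for the m6A-RIP and input libraries of HCCLM3 cells, 1 each. Not given in the sources used here were their versions, their settings and any duplicate removal. An annotated peak table was deposited by the authors. Its fold is a ratio, RIP over input, that the authors' peak caller computed. Its p-value and q-value columns, whose headers were damaged in the deposited table, were read as −log10 values, because the score deposited by the authors was 10 times the first of them, rounded down, for 99.99% of peaks. Positions, distances and gene assignments are other columns deposited by the authors and were kept.

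Symbols were updated through a RefSeq gene table for 34 peaks, and 6 had no match. A peak was called inside its gene by the summit and the deposited transcript span. The fold was modelled by adding a pseudocount of 1 both to the scaled RIP fragments and to the input level, and the p-value as the upper tail of a Poisson count. At a scaling of 0.642, whole fragments met 100% of peaks within 0.001 on the −log10 scale, 98.2% of them with a single solution, against 1.32% without scaling. Of 1431 peaks simulated with the same formulas and scaling, 100% were recovered, which checks the solving step alone and not whether the formulas hold for these libraries. Total depth is not in the table and stays unknown.

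Named genes were the 12 peaks of highest fold, the 12 of highest −log10 p-value, the 5 genes with most peaks, the 6 of highest fold per distance class, up to 5 genes per list of 22 lists, and the m6A genes, of which a few are not reported here; some others, of the rule's edges, the sequences shown, peaks past the transcript end and lower-ranked list members, were chosen after their values were seen. The members and lists were chosen with earlier results of these data known. The comparison of promoter GC content was void, since the RefSeq promoter table held 2222 of 3066 genes. Alternatives covered the q-value, fragments, summit, contigs, 1 peak per gene, gene span and pseudocount. Python 3.11.15, pandas 2.3.3, numpy 2.4.6, scipy 1.17.1 and matplotlib 3.10.9 were used.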

Additional observations from a re-analysis of the deposited data

How the results depend on the processing

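No paired analysis was possible because there was 1 RIP and 1 input library. The count of 3583 downstream promoter peaks became 2274 past a q-value of 0.05 and 1307 past 1e-5. The median fold of 3.53 became 4.40 and 5.20 at those thresholds, 3.74 with more than 3 RIP fragments, 3.67 with 1 peak per gene and 5.82 without the pseudocount. The share past a q-value of 0.05, 63.5%, became 70.6% with more than 3 fragments and 65.6% with 1 peak per gene. The share within 1 kb, 55.8%, became 61.9% with the summit 1 to 3000 bases downstream and 58.1% with the summit in the assigned gene. The share with the summit in the RefSeq span of the assigned gene, 89.7%, became 90.8% with the summit 1 to 3000 bases downstream, 91.0% on the main chromosomes, 85.9% with the whole peak inside and 91.6% with the deposited transcript span. The share assigned to genes spanning up to 3 kb, 19.2%, became 23.3% at a q-value under 1e-5, 12.2% with the summit in the gene, 29.6% with a limit of 5 kb and 21.5% with the deposited transcript span. The deposited span was added as an alternative after seeing the data. The other alternatives moved a value by less than its counting interval or, for the number of peaks, by less than 1.5 times. The causes of these shifts were not tested beyond what each alternative leaves out. With no replicate, differences between genes have no replicate check, and weak peaks of few fragments carry wide intervals.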
